A study of Bos taurus with 18 samples.

Results

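Inducible nitric oxide synthase, NOS2, was followed across milk cells of healthy cows and of cows with mastitis or endometritis. The array carries 4 probe sets, groups of short probes read together, whose annotated gene symbol is exactly NOS2, out of 24016 that are not controls. They are Bt.8479.1.A1_at, Bt.23126.1.S1_at, Bt.23126.2.S1_at and Bt.23126.2.A1_at, and each is described apart because levels of different probe sets cannot be compared.

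RNA came from the cells in the milk of 18 dairy cows, 6 healthy, 6 with mastitis (inflammation of the udder) and 6 with endometritis (inflammation of the uterine lining), with 1 Affymetrix bovine array per cow. Healthy cows had under 100000 cells per ml of milk, were 2 to 4 years old and were mostly sampled 10 to 100 days after calving. They were in lactation 1 to 3 apart from 1 cow in lactation 4 and 1 in lactation 8, which does not go together with the stated age. The diseased cows were in lactation 1 to 8 and 10 to 220 days after calving, with no age given, so stage of lactation and age cannot be told apart from disease. The labels do not give the pathogen or severity of mastitis. Milk cells are a mixture of neutrophils, macrophages, lymphocytes and shed epithelial cells, so more cells that carry NOS2 RNA and more NOS2 RNA per cell cannot be told apart here.

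Nitric oxide synthases turn the amino acid arginine into citrulline and nitric oxide, a reactive gas. The neuronal enzyme NOS1 and the endothelial enzyme NOS3 are switched on by calcium and calmodulin, whereas NOS2 is regulated mainly by transcription and, once made, stays active. In macrophages and other cells, bacterial products acting through Toll-like receptors and the cytokines interferon gamma, TNF and interleukin 1 are known inducers, through transcription factors such as NF-kappaB. The enzyme works as a dimer that needs haem, flavins and the cofactor tetrahydrobiopterin. Its product damages microbes, partly by combining with superoxide from the phagocyte oxidase.

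The arrays themselves differed in ways that bear on the values below. Values are on a log2 scale, where 1 unit is a 2-fold difference, and they pile up at a lower limit of 2.43, with a median of 2.55 over the whole table. Values at or below that median are called background here. Of the 24016 probe sets, 6025 (25.1%) exceeded it on no array. GAPDH is read near both ends of its transcript, and its 3′ value minus its 5′ value, which grows as RNA degrades, was 0.88 ± 0.40 in healthy cows, 0.58 ± 0.25 in endometritis and 0.39 ± 0.23 in mastitis (mean ± SD, n = 6 each). The ranges overlapped, at 0.35 to 1.52 in healthy cows and 0.08 to 0.71 in mastitis. The dap control reads a bacterial RNA. It was 6.79 to 9.03 in healthy cows, 5.89 to 7.88 in endometritis and 5.54 to 6.66 in mastitis. Healthy and mastitis arrays did not overlap in this control, and its part in the NOS2 difference was not tested. Arrays healthy 3 and endometritis 3 had the highest array medians, 2.592 and 2.588, and endometritis 3 had the lowest median correlation with its own group, 0.895. The mammary secretory markers, 10 of 10 measured, averaged 11.77 to 13.00 per array in healthy cows and 5.95 to 9.88 in mastitis, and the neutrophil markers, 11 of 16 measured, 4.32 to 5.88 and 7.52 to 8.72.

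NOS2 was high in mastitis and low to moderate in the other groups. At Bt.8479.1.A1_at, the probe set with the highest mean, healthy cows 1 to 6 read 6.80, 5.19, 2.49, 4.74, 5.54 and 4.94, a mean of 4.95 ± 1.41 (SD, n = 6). Endometritis cows 1 to 6 read 5.53, 3.32, 3.47, 4.35, 6.83 and 7.59, a mean of 5.18 ± 1.77. Mastitis cows 1 to 6 read 8.91, 11.23, 11.36, 9.17, 8.92 and 10.02, a mean of 9.94 ± 1.13. The lowest mastitis cow stood 2.11 above the highest healthy cow and 1.32 above the highest endometritis cow, so mastitis did not overlap with either group. Healthy and endometritis cows overlapped over most of their range, and each of these groups spread over more than 4 log2 units (4.32 and 4.27). Healthy cow 3, the lowest of all, was the single array at background here.

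The second responding probe set, Bt.23126.1.S1_at, showed the same order of groups nearer the lower limit. Healthy cows ran from 2.52 through a median of 2.68 to 2.94, endometritis cows from 2.53 through 2.64 to 3.06, and mastitis cows from 4.13 through 5.65 to 6.72. Mastitis again did not overlap with the others, the gaps being 1.19 to healthy and 1.07 to endometritis. In healthy and endometritis cows 4 of 6 arrays each were above background. The order of the mastitis cows was nearly shared by both probe sets. Cow 3 was highest, followed by cows 2, 6 and 4, and cows 1 and 5 exchanged the last places. These values come from the same RNA on the same arrays, so they are no replicates of each other.

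The remaining probe sets read almost nothing. Bt.23126.2.A1_at was at the lower limit (within 0.001) on 16 of 18 arrays and above background on 0, and its highest value was 2.46, in mastitis cow 4. Bt.23126.2.S1_at was at the lower limit on 13 arrays and above background on 1, mastitis cow 2 at 3.25. The other mastitis values there ran from 2.43 to 2.52. Both share the number 23126 in their name with the responding Bt.23126.1.S1_at, so the annotation ties signal and no signal to 1 gene. Which part of the transcript each probe set covers was not analysed here.

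**Figure D1:**
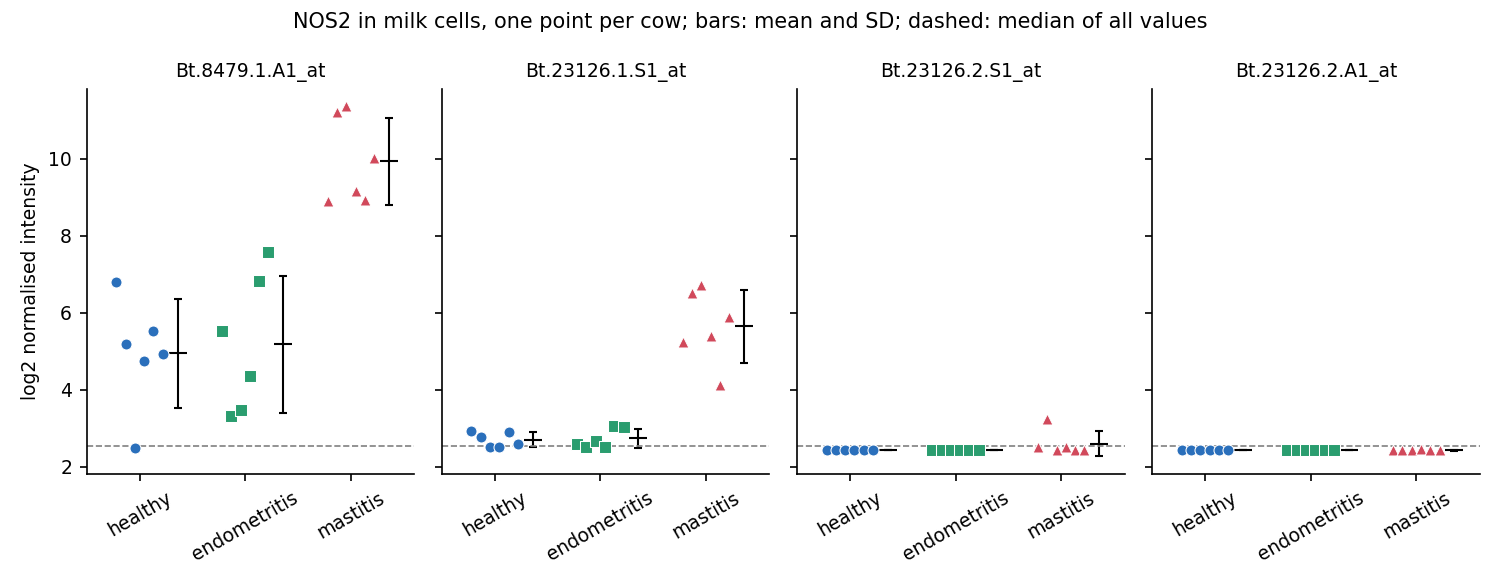
Log2 normalised intensity of the 4 NOS2 probe sets, with 1 point per cow by group (6 cows each), the mean and SD as bars, and the median of all values, 2.55, as a dashed line. At Bt.8479.1.A1_at and Bt.23126.1.S1_at all 6 mastitis cows lie above all other cows, and the other probe sets stay at or near the lower limit, with mastitis cow 2 at 3.25 the single value above the dashed line.

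The comparison of mastitis with healthy cows asked how NOS2 differs between an inflamed and a healthy udder. NOS2 rose by 4.99 ± 0.83 (SE, n = 6 and 6) at Bt.8479.1.A1_at, which is 31.7-fold with a 95% interval of 9.35 to 107-fold. It rose by 2.95 ± 0.33 at Bt.23126.1.S1_at, 7.70-fold with an interval of 4.76 to 12.5-fold. Adjusted p from limma, over all 24016 probe sets, was 0.000649 and 4.30e-05. By size of rise these were the number 13 and number 244 probe sets of the table. Bt.23126.2.S1_at differed by 0.17 ± 0.11 (adjusted p = 0.319) and Bt.23126.2.A1_at by 0.01 (adjusted p = 0.468), and neither passed. At Bt.23126.2.S1_at the difference was 0.04 without mastitis cow 2, and 0.03 up to and 0.46 above title number 120. The mastitis cows above that number were cow 1 at 2.52 and the same cow 2 at 3.25. So 2 of the 4 NOS2 probe sets were called higher, where 10.2% of all probe sets were called higher, 9.35% lower and 19.5% in either direction. Those were 2443 higher and 2246 lower, against 1996 and 900 after scaling by the spiked hybridisation controls. The same 2 had every mastitis cow above every healthy cow, as did 6.22% of all probe sets. An exact two-sided permutation test over the 924 arrangements of 6 against 6 gave p = 0.00216 for each of them, the smallest it can give, among 12 such tests that were not adjusted. Fits that left out 1 cow at a time gave 4.49 to 5.36 and 2.73 to 3.25 with the call kept in all 18 fits at each. With cows split by the number in their sample title, the difference at Bt.8479.1.A1_at was 4.80 up to number 120 (adjusted p = 0.0597) and 5.24 above it (adjusted p = 0.124), neither of which passed with so few cows. At Bt.23126.1.S1_at it was 2.87 (adjusted p = 0.113) and 3.13 (adjusted p = 0.00217), of which the second passed. In mastitis the 5.24 and the 3.13 rest on cows 1 and 2 alone.

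The healthy values at Bt.23126.1.S1_at lay between 2.52 and 2.94, close to the lower limit, with 4 of 6 above background, whereas 5 of 6 healthy cows were above it at Bt.8479.1.A1_at. The sizes of the rises at these probe sets are therefore not compared.

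The comparison with endometritis asked whether a disease outside the udder also goes with NOS2 in milk cells. No probe set passed. Endometritis minus healthy was 0.23 ± 0.83 at Bt.8479.1.A1_at (adjusted p = 1, 95% interval -1.53 to 2.00) and 0.03 ± 0.33 at Bt.23126.1.S1_at (adjusted p = 1, -0.67 to 0.72). These intervals run from 0.347 to 3.99-fold and from 0.63 to 1.65-fold, so a rise like that in mastitis lay outside both, while smaller differences could not be seen. Their spread is shared with the mastitis cows. In the fit of the 12 arrays compared the SE was 0.904 at Bt.8479.1.A1_at and 0.124 at Bt.23126.1.S1_at, and neither difference passed. The sign at Bt.8479.1.A1_at turned when single cows were left out, to -0.26 without healthy cow 3, -0.25 without endometritis cow 6 and -0.10 without endometritis cow 5. At Bt.23126.1.S1_at it turned without healthy cow 3 or 4 or endometritis cow 5 or 6 (-0.04 to -0.01). No NOS2 probe set had every endometritis cow above every healthy cow, as 0.0999% of all probe sets had. Limma called 0 of 24016 probe sets (0%) in this comparison, and 1047 had an unadjusted p under 0.05, among them none of NOS2 (0.781, 0.932, 0.998 and 1). No probe set of NOS2 had a permutation p under 0.797.

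Between both diseases NOS2 was higher in mastitis. It rose over endometritis by 4.75 ± 0.83 at Bt.8479.1.A1_at (27.0-fold, 7.95 to 91.4-fold, adjusted p = 0.00136) and by 2.92 ± 0.33 at Bt.23126.1.S1_at (7.55-fold, 4.66 to 12.2-fold, adjusted p = 5.27e-05). That made 2 of 4 called higher, against 7.99% of all probe sets called higher, 6.55% lower and 14.5% in either direction, and 4.43% of all had every mastitis cow above every endometritis cow, as these 2 did. Among cows above title number 120 the first difference was 4.96 and no longer passed (adjusted p = 0.115), and up to 120 there was 1 endometritis cow. This comparison uses the same mastitis arrays as the first. The order of groups was thus mastitis above endometritis and healthy, with the latter pair not separated beyond their spread.

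**Figure D2:**
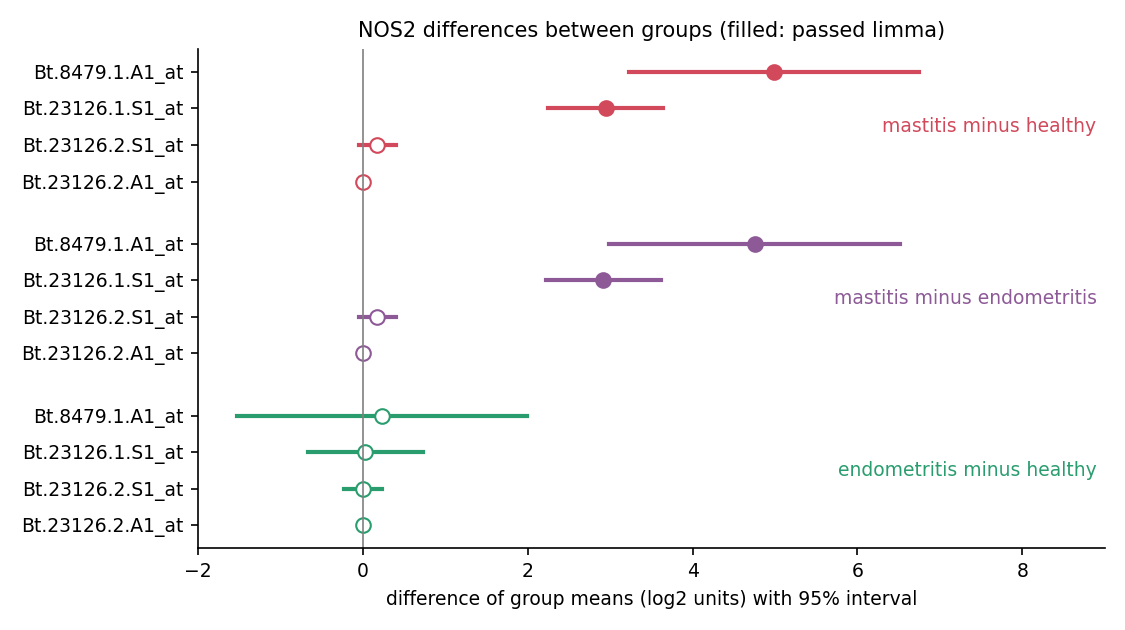
Difference of group means in log2 units with its 95% interval for the 4 NOS2 probe sets in the 3 comparisons, filled where limma passed. The filled points are the 4.99 and 2.95 of mastitis minus healthy and the 4.75 and 2.92 of mastitis minus endometritis, and every interval of endometritis minus healthy covers 0.

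Leaving out healthy 3 and endometritis 3, a choice made after the data were seen, left NOS2 4.49 and 2.91 higher in mastitis than in healthy cows (adjusted p = 0.00166 and 0.000365), again 2 of 4 probe sets. Of all 24016 probe sets 2079 were then called higher and 2188 lower. Adding the GAPDH difference to the model gave 4.62 and 3.14 (adjusted p = 0.0179 and 0.000765).

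Markers of several milk cell types were set beside NOS2. Of the neutrophil markers 9 of 11 were higher in mastitis than in healthy cows with a median difference of 3.68, where 11.3% of all named genes were higher. Of the mammary secretory markers 9 of 10 were lower with a median of -5.58, and of the epithelial structure markers 5 of 9, where 15.8% of all named genes were lower. None of the 11 measured macrophage markers (14 listed) passed in limma, nor did any of the 9 T cell markers. Of the NK and cytotoxic markers 2 of 7 measured were higher, with a median difference of 0.17. Among the B cell markers 1 of 3 measured was higher, with a median difference of 0.05. The macrophage markers averaged 3.69 to 6.51 per array in healthy cows, 3.596 to 7.52 in endometritis and 4.54 to 7.09 in mastitis, and CTSL among them was at background on all mastitis and all endometritis arrays. The T cell markers averaged 2.96 to 5.46, 3.61 to 6.46 and 2.66 to 5.11 in the same order, with CD4 at background throughout. What part these cells have in the NOS2 difference was not tested.

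Outside mastitis, NOS2 was set against the marker lists from cow to cow, a relation looked for after the values were seen. Over the 12 healthy and endometritis cows, Bt.8479.1.A1_at and the mean macrophage marker value had a Pearson r of 0.78 (permutation p = 0.00284, adjusted 0.0227 over 8 marker lists) and a Spearman rho of 0.748 (permutation p = 0.00722, adjusted 0.0578, which did not pass). Without the 2 cows farthest from the median macrophage value r was 0.713, and without healthy 3 and endometritis 3 it was 0.649. Within the groups r was 0.706 in healthy (exact permutation p = 0.0722) and 0.832 in endometritis cows (exact permutation p = 0.0611), neither of which passed. Without the 2 cows farthest from their group's median, which leaves 4 per group, r was -0.0673 in healthy cows and 0.842 in endometritis. The healthy value thus rests on the 2 cows left out. Across both groups r was 0.911 in the 8 cows above title number 120 and -0.13 in the 4 up to it. With 4 cows a correlation cannot be judged.

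The neutrophil markers were compared in the same way. Over the same 12 cows r was 0.715 (permutation p = 0.00882, adjusted 0.0353) and rho 0.629 (permutation p = 0.0316, adjusted 0.126), and r was 0.382 without the 2 cows farthest from the median neutrophil value, so the pooled value rests on those. It was 0.747 without healthy 3 and endometritis 3. Within the groups r was 0.756 in healthy and 0.752 in endometritis cows (exact permutation p = 0.0472 and 0.0611, both 0.433 when adjusted over 24 relations within groups). Without the 2 farthest cows, which leaves 4 per group, it was 0.786 and 0.878. Across both groups r was 0.797 in the 8 cows above title number 120 and -0.214 in the 4 up to it, again too few to judge. Endometritis cow 6, with the highest NOS2 outside mastitis at 7.59, also had the highest neutrophil mean there, 6.14. Endometritis cow 5, at 6.83, had the highest macrophage mean, 7.52. None of the 6 other lists passed over these 12 cows, with adjusted p for r from 0.155 to 0.968.

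Among the 6 mastitis cows neither list went with NOS2. There r was -0.0354 for the macrophage and 0.013 for the neutrophil markers (exact permutation p = 0.903 and 0.933). Mastitis cow 3 had the highest NOS2 with a neutrophil mean of 7.87, and mastitis cow 1 had the lowest NOS2 with the highest neutrophil mean, 8.72. With 6 cows, moderate relations could not have been seen.

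**Figure D3:**
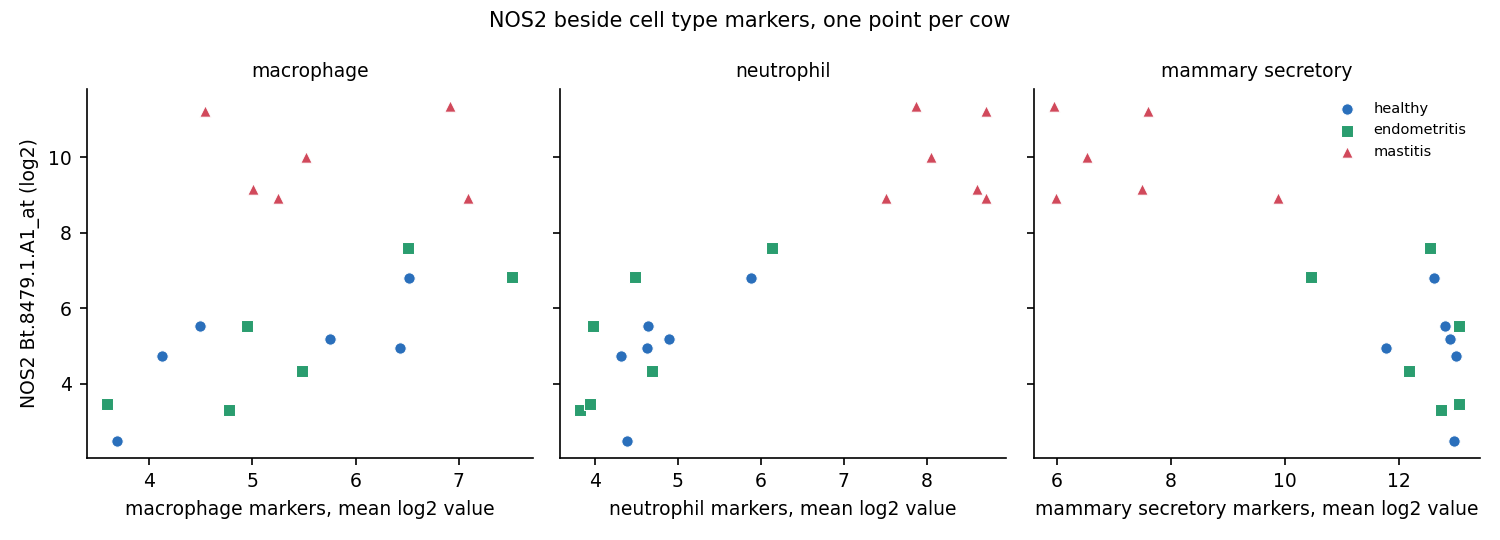
NOS2 at Bt.8479.1.A1_at (log2) against the mean log2 value of the macrophage, neutrophil and mammary secretory markers, with 1 point per cow and a marker shape per group. Healthy and endometritis cows rise together along the macrophage axis (r = 0.78), while the mastitis cows lie above them at macrophage values of 4.54 to 7.09.

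The rest of the nitric oxide pathway was taken from a list of 87 genes other than NOS2, of which 71 had a named probe set (for a gene with several, that with the highest mean). In mastitis against healthy cows 21 rose, 10 fell and 40 did not pass. The shares were 29.6% higher and 14.1% lower, where 11.3% and 15.8% of all 9155 named genes were (27.1% in either direction), and the median difference was 0.11 against -0.01 over all genes. In endometritis against healthy limma called 0 of 71 (0% of all genes were called), and 1 had an unadjusted p under 0.05. In mastitis against endometritis 21 rose and 7 fell, 29.6% and 9.86%, against 9.14% and 10.9% of all genes (20% in either direction). Of the 31 calls against healthy, 13 were lost with the GAPDH difference in the model, those of CALM3, NOSTRIN, HSP90AA1, GCH1, PTS, QDPR, GCHFR, TRAF6, FOS, ADH5, CYBB, CYBA and RAC2. Among cows up to title number 120, 30 were lost, all but that of NCF1. Above it AMD1, CYBA, CYBB, FOS, GCHFR, HSP90AA1, JUN, NOSTRIN, RAC2, TLR2, TLR4 and TRAF6 did not pass. The mastitis cows above number 120 were cows 1 and 2 alone. Of the calls against endometritis, those of ADH5, CYBA, CYBB, FOS, GCH1, GCHFR, IL1B, NFKBIA, QDPR, RELA, SPR and TRAF6 were lost under at least 1 other setting that kept all title numbers. Without healthy 3 and endometritis 3 the counts were 21 higher and 11 lower against healthy and 17 and 5 against endometritis. NCF1 and NCF4 stand both on this list and on the list of neutrophil markers. What part neutrophils and secretory cells have in these counts was not tested.

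NOS3, the endothelial enzyme, was at background on all 18 arrays, with a highest value of 2.55, and did not differ between the groups beyond its spread (0.00 ± 0.02, adjusted p = 0.954). NOS1 had no named probe set. Of 6 measured binding partners 1 was called higher and 2 lower (16.7% and 33.3%), where 11.3% and 15.8% of all named genes were. HSP90AA1, a chaperone of the synthases, rose by 1.38 ± 0.35 in mastitis over healthy. CALM3, a gene for calmodulin, fell by 0.96 ± 0.27, and NOSTRIN, which holds NOS3 in vesicles, fell by 2.51 ± 0.66, all in mastitis against healthy. CALM3 did not pass in the fit of the 12 arrays compared (adjusted p = 0.0577), with scaling to the hybridisation controls (adjusted p = 0.345) or with array weights (adjusted p = 0.0521). With the GAPDH difference in the model NOSTRIN was at -1.22 (adjusted p = 0.321) and HSP90AA1 at 0.92 (adjusted p = 0.223). NOSTRIN ran from 2.68 to 6.72 in healthy cows and from 2.43 to 2.68 in mastitis, so the groups met without overlapping, and 2 of 6 mastitis arrays were above background, so its fall depends on the lower limit. NOSIP, another partner, differed by -0.29 and did not pass (adjusted p = 0.0667).

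Arginine supply showed no called change. SLC7A1, a cationic amino acid transporter, was 0.40 higher in mastitis than in healthy cows (adjusted p = 0.117). SLC7A7, a transporter subunit that exchanges cationic amino acids, was 1.72 higher (95% interval 0.43 to 3.02, adjusted p = 0.0601). ASS1 and ASL, which rebuild arginine from citrulline, differed by 0.04 (-0.73 to 0.81, adjusted p = 1) and -0.43 (-1.05 to 0.20, adjusted p = 0.375). Of the 5 measured genes 0 passed in limma, where 27.1% of all named genes passed, and 2 had an unadjusted p under 0.05. SLC7A2 had no named probe set.

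Of 7 measured enzymes that compete for arginine or handle it or its analogues, 1 passed. It was lower, a share of 14.3%, near the 15.8% of all named genes called lower. ARG1, the arginase that turns arginine into ornithine, was at background on all mastitis and endometritis arrays, reading 2.43 on every mastitis array, and reached 2.56 on the highest healthy array. ARG2 had no named probe set. ODC1, which starts polyamine synthesis from ornithine, was 0.60 higher in mastitis than in healthy cows (adjusted p = 0.372). AMD1, a later polyamine enzyme, fell by 1.37 ± 0.29 in mastitis against healthy, at 1 of its 2 probe sets.

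Genes of the cofactor tetrahydrobiopterin were lower in mastitis than in healthy cows with 1 exception. GCH1, the first and rate-limiting enzyme of its synthesis, was at background in all healthy cows and reached 2.48 to 3.01 in mastitis, at least 1.11-fold higher (adjusted p = 0.0134). Under 6 other settings it did not pass (adjusted p = 0.0534 to 0.395). PTS and SPR, the next enzymes of synthesis, followed in the other direction: PTS fell by 1.42 ± 0.30, a call lost with scaling to the hybridisation controls, and SPR fell by 1.66 ± 0.28. SPR ran from 2.45 to 3.34 in mastitis, with 4 of 6 arrays above background, so the size of its fall depends on the lower limit. QDPR and PCBD1, which regenerate the cofactor, were lower as well. QDPR fell by 2.17 ± 0.43, at 1 of 2 probe sets, and PCBD1 fell by 3.87 ± 0.65. GCHFR, a protein through which the cofactor restrains GCH1, fell by 3.15 ± 0.62.

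All 6 measured cofactor genes thus passed in mastitis against healthy, 1 higher and 5 lower, with a median of -1.91. The shares were 16.7% higher and 83.3% lower, where 11.3% and 15.8% of all named genes were. Mastitis arrays read 3.11 to 4.67 for PCBD1 and healthy arrays 5.03 to 8.64, without overlap. Against endometritis GCH1 rose and SPR, QDPR, PCBD1 and GCHFR fell, while PTS differed by -0.80 without passing (adjusted p = 0.0911). GCHFR did not pass against endometritis when single cows were left out, in 7 of 18 fits (mastitis 1, 2, 4 or 6, or endometritis 1, 2 or 3, adjusted p 0.0504 to 0.0736). With the GAPDH difference in the model GCH1, PTS, QDPR and GCHFR did not pass against healthy.

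The cytokines that induce NOS2 did not pass against healthy cows. IFNG, interferon gamma, was 0.45 higher (95% interval -0.59 to 1.49, adjusted p = 0.585) and ran from 2.51 to 4.56 in mastitis and 2.56 to 4.60 in healthy cows. TNF differed by 0.01 (-1.10 to 1.12, adjusted p = 1). IL1B was 2.33 higher (0.23 to 4.43, adjusted p = 0.122), and it rose by 3.54 over endometritis (adjusted p = 0.0238). That call was lost without mastitis 2 or endometritis 1, 2 or 3 (adjusted p 0.0507 to 0.0602). Of these 4 ligands, with IL1A, 0 passed against healthy in limma, where 27.1% of all named genes passed. An unadjusted p under 0.05 was found for 1.

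Of 6 measured receptors 4 rose in mastitis over healthy: TLR4, the lipopolysaccharide receptor, by 4.42, TLR2, which senses bacterial lipoproteins, by 3.29, the TNF receptor TNFRSF1A by 3.24 and IFNGR2, a chain of the interferon gamma receptor, by 1.90 (1 of 2 probe sets). IL1R1 and CD14, the lipopolysaccharide co-receptor, did not pass at the probe set with the highest mean, and 1 of the 2 probe sets of CD14 did. Of the receptors and of the signalling genes 66.7% each were called higher, where 11.3% of all named genes were higher and 15.8% lower. Of 12 signalling genes 8 rose and 0 fell. They were the transcription factors CEBPB at 4.05 ± 0.51 (1 of 2 probe sets), JUN at 3.59 ± 0.55 and FOS at 2.72 ± 0.70, the NF-kappaB subunits NFKB1 at 3.10 ± 0.41 and RELA at 0.72 ± 0.20, the kinase IKBKB at 2.93, the adaptor MYD88 at 2.51 and the ligase TRAF6 at 0.76 (1 of 2 probe sets). RELA did not pass in the fit of the 12 arrays compared (adjusted p = 0.0553) or with quantile normalisation, where it was at 0.47 (adjusted p = 0.178). NFKBIA, the inhibitor that NF-kappaB itself induces, was 2.13 higher (0.50 to 3.75, adjusted p = 0.0644), and rose by 2.71 over endometritis (adjusted p = 0.0252). Its call there was lost without mastitis 1 or 6 or endometritis 1, 2 or 3 (adjusted p 0.0507 to 0.0584). So were those of FOS (6 fits, 0.0524 to 0.0714: mastitis 2, 4 or 6, or endometritis 1, 2 or 3) and RELA (8 fits, 0.0519 to 0.0808: mastitis 1, 2, 4 or 6, or endometritis 2, 3, 5 or 6).

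Restraining genes gave 1 call in 5, a share of 20% called higher, where 11.3% of all named genes were higher and 15.8% lower. SOCS3, which damps cytokine signalling, rose by 2.33 ± 0.25 in mastitis over healthy, from 2.45 to 2.61 in healthy to 3.37 to 5.57 in mastitis, at 1 of 2 probe sets. Of the healthy arrays 1 of 6 was above background, so the difference depends on the lower limit. IL10, a cytokine that lowers macrophage activation, was 0.66 higher without passing (adjusted p = 0.436). IL4, IL13 and TGFB1 did not pass either, and IL4 and IL13 were at background on all healthy and mastitis arrays.

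Downstream of nitric oxide, GUCY1B1, a subunit of the guanylate cyclase that nitric oxide activates, differed by -2.41 between mastitis and healthy cows (-4.59 to -0.23, adjusted p = 0.123) and did not pass. The 3 other measured targets, GUCY1A1, PRKG1 and PDE5A, differed by 0.02 or less. PRKG1 and PDE5A were at background on all 18 arrays, and GUCY1A1 was above it on 1 healthy and 1 mastitis array. These readings therefore cannot show whether the 3 genes changed. Of the 7 removal genes 1 passed, a share of 14.3% lower, near the 15.8% of all named genes called lower. This was ADH5, which breaks down S-nitrosoglutathione and fell by 1.43 ± 0.40, at 1 of 2 probe sets. It was at -0.94 with array weights (adjusted p = 0.0997) and at -0.99 with the GAPDH difference in the model (adjusted p = 0.28), and scaling to the hybridisation controls also ended its call (adjusted p = 0.0793). Shares among the 8 genes that make or remove superoxide were 75% higher and 12.5% lower, where 11.3% and 15.8% of all named genes were. Of these 8, 6 rose in mastitis over healthy. They were NCF1 at 4.89, NCF4 at 3.10, CYBB at 2.85 ± 0.77, RAC2 at 2.61 ± 0.59 and CYBA at 1.85 ± 0.59, all parts of the phagocyte oxidase, and mitochondrial superoxide dismutase SOD2 at 2.66. SOD1, the cytosolic dismutase, fell by 3.26 ± 0.47. CYBA did not pass with quantile normalisation or array weights, or in 9 of 18 fits without a single cow (healthy 3, 4 or 5, or any mastitis cow, adjusted p 0.0519 to 0.0915). Against endometritis CYBA lost its call in 10 such fits (any mastitis cow or endometritis 1, 2, 3 or 4, 0.0508 to 0.0881) and CYBB in 5 (mastitis 2 or 4, or endometritis 1, 2 or 3, 0.0529 to 0.0602).

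**Figure D4:**
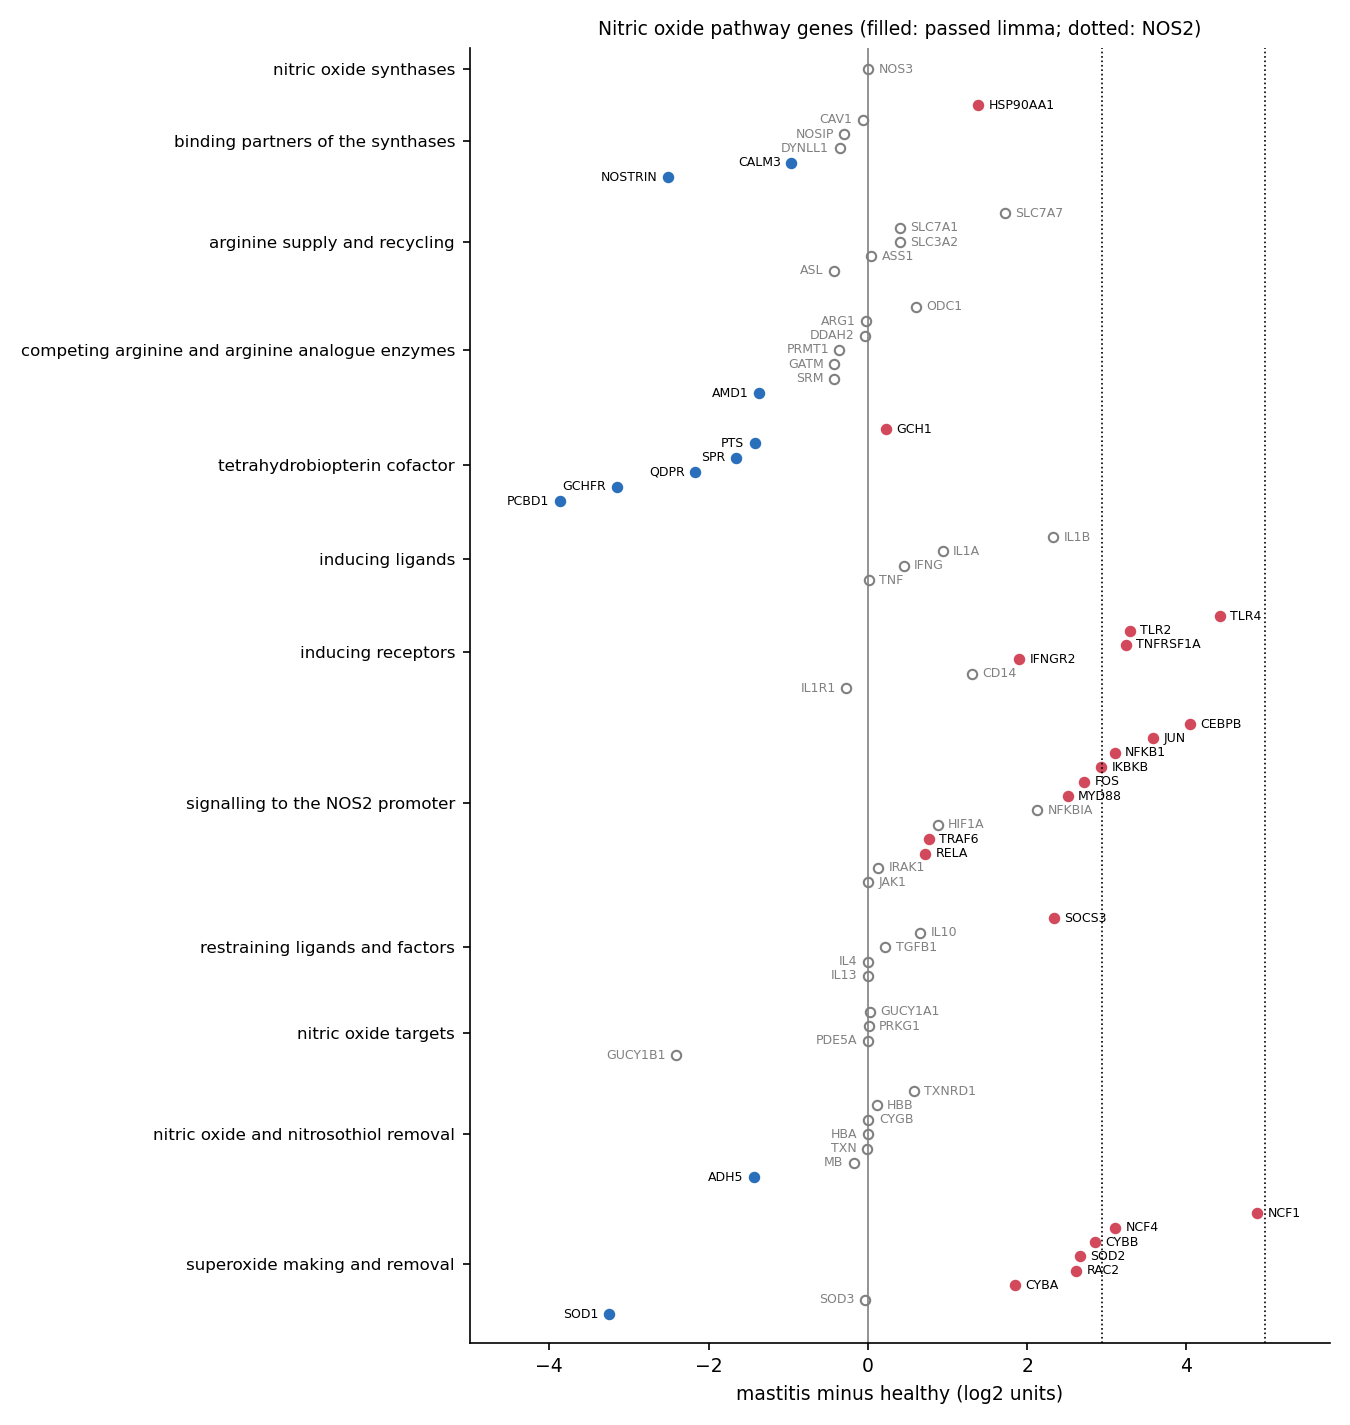
Difference of mastitis minus healthy (log2 units) for the 71 measured genes of the pathway, by role, filled where limma passed, with dotted lines at the 2.95 and 4.99 of the responding NOS2 probe sets. Receptors, signalling and oxidase genes lie mostly to the right and 5 of the 6 cofactor genes to the left.

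Genes with a pattern most like that of NOS2 were found by the root mean square difference from Bt.8479.1.A1_at over the 18 arrays, each probe set centred on its own mean. The 10 closest of 9154 genes ran from 0.867 to 1.05 log2 units, against a median of 2.66 over all. The closest was TLR4 at 0.867, followed by TRIB1, a pseudokinase, at 0.925 and PLEK, pleckstrin of blood cells, at 0.98. The others were LOC100336589, the interleukin 1 receptor antagonist IL1RN, the transcription factor ETS2, the interleukin 1 receptor accessory chain IL1RAP, the complement regulator CD55, serine dehydratase SDS and the cytidine deaminase APOBEC3Z1. All 10 were called higher in mastitis than in healthy cows, by 3.53 to 4.61, which the choice by likeness largely fixes. The other responding probe set of NOS2 itself lay at 1.43 and would not be among them.

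With each probe set centred within its group, so that differences between groups do not count, other genes came first. Among 1166 genes with a spread between cows at least 0.5 times that of NOS2, which was 1.46, the closest were creatine kinase CKM at 0.625, the plasminogen activator PLAU at 0.664, LOC100336589 at 0.672, the neuropilin NRP1 at 0.674 and the scavenger receptor OLR1 at 0.691, against a median of 1.39. PLAU and LOC100336589 rose in mastitis over healthy (2.85 ± 0.72 and 3.71 ± 0.74). CKM, NRP1 and OLR1 were 1.47, 0.78 and 1.30 higher and did not pass (adjusted p = 0.18, 0.487 and 0.252). LOC100336589 was the gene that both measures named.

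**Figure D5:**
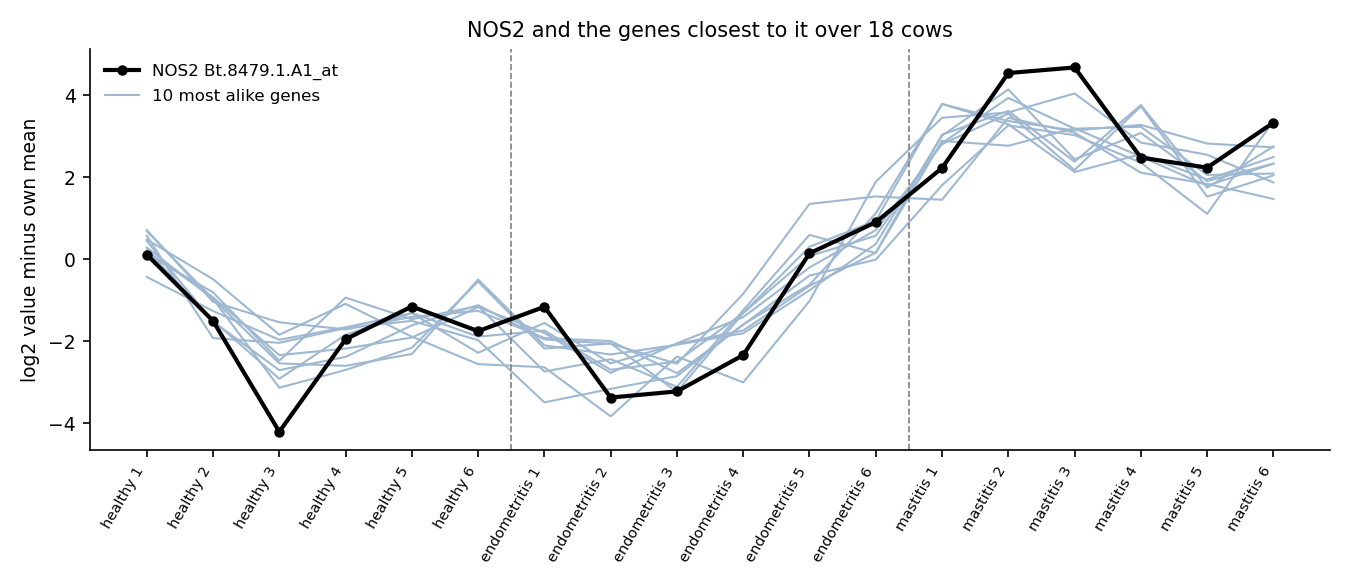
Log2 value minus the probe set's own mean for NOS2 at Bt.8479.1.A1_at (black) and the 10 genes closest to it (blue) over the 18 cows, ordered by group. NOS2 and the 10 genes are high in all 6 mastitis cows and some are raised in endometritis cows 5 and 6, and NOS2 is the lowest of them in healthy cow 3, at -4.20.

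The 3 nearest protein-coding genes on either side of NOS2 in RefSeq's table of genes (ARS-UCD2.0) were looked up as well. Of these 6, LGALS9, a galectin next to NOS2, rose by 1.88 ± 0.56 in mastitis over healthy (adjusted p = 0.0265), and WSB1, a ubiquitin ligase subunit, by 3.30 ± 0.54 (adjusted p = 0.000582). TMEM97, on the other side, fell by 0.80 ± 0.26 (adjusted p = 0.041). KSR1, LYRM9 and NLK had no named probe set. Of all named genes 11.3% were called higher and 15.8% lower in this comparison, and 3 measured neighbours are too few to set against those shares.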

How the data were processed

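Per the labels' protocols, RNA with an integrity number above 6 was labelled from 100 ng with a 3′ kit and 10 µg were hybridised. The deposited values were made by the authors; per the submitters' processing notes RMA, GCRMA and limma were used, in a role and version not given. They were read as log2 values of normalised intensity as deposited, and the base is inferred from their range (2.43 to 14.2), so every fold rests on that reading. Of 24128 probe sets, 112 controls were left out. Columns of no sample numbered 0. By the platform annotation 13318 probe sets carried 1 symbol, 86 more than 1 symbol and 10724 no symbol, and Entrez identifiers changed 0 symbols.

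Limma 3.58.1 in R 4.3.3 was fitted once to all 18 arrays with the 3 groups as terms (two-sided, 15 residual degrees of freedom, prior 0.561). P-values were Benjamini-Hochberg adjusted over 24016 probe sets and called under 0.05. Errors beside differences are SE. The cows are separate animals, and 6 per group limit the precision. A fold against a group at background throughout is a lower bound against 2.55. Genes were named if they were NOS2, passed in the pathway list, belonged to a fixed set of it, or were closest to NOS2; the neighbours were added later. The members and lists were chosen with earlier results of these data known. The alternatives were other scalings and filters, array weights, a covariate or block, subsets by title number and leaving out cows; leaving out 2 arrays together and the relations to marker lists were added after values were seen. The procedure was tested on simulated data.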

Additional observations from a re-analysis of the deposited data

Results flagged for a closer look

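Each NOS2 probe set was checked in each group for a cow far from the other 5, and 3 of 12 groups met the rule. Its rate of about 1 in 20 by chance holds for normal values, not for values at the lower limit. Where 5 cows share that limit, any higher value in the remaining cow meets the rule. Groups with all cows at the limit cannot meet it, so the count is not set against that rate. At Bt.23126.2.S1_at, mastitis cow 2 read 3.254, 0.734 above the next cow. At the same probe set an endometritis cow read 2.431 and at Bt.23126.2.A1_at mastitis cow 4 read 2.458, which are 0.0015 and 0.0222 above the next cow and lie at background.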

How the results depend on the processing

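No paired analysis was possible because the labels give cows no shared replicate number. Both responding NOS2 probe sets kept their direction in mastitis against healthy and against endometritis under all settings run, at 4.38 to 5.25 for Bt.8479.1.A1_at and 2.84 to 3.21 for Bt.23126.1.S1_at apart from the fits without 1 cow. They lost the call in subsets by title number: up to 120 at 4.80 and 2.87 against healthy, above 120 at 5.24 against healthy and 4.96 against endometritis for Bt.8479.1.A1_at. Up to 120 limma called 78 probe sets higher and 41 lower in all, with 3 healthy and 4 mastitis cows. Above 120 the mastitis group was cows 1 and 2 alone. Endometritis minus healthy was not called under any setting. Its sign turned at Bt.23126.1.S1_at to -0.022 with median centring and -0.0373 with the title number as a block, and without single cows it ran from -0.0367 to 0.0754. At Bt.23126.2.S1_at it turned to -0.050 and -0.052 under the same settings. At Bt.8479.1.A1_at it ran from -0.26 to 0.61 without single cows. The causes were not tested. Over all probe sets, 2443 higher and 2246 lower in mastitis than in healthy cows became 856 and 572 with the GAPDH covariate, 1996 and 900 with scaling to the hybridisation controls and 1459 and 888 above title number 120. Against endometritis, 1919 and 1574 became 1277 and 704 with that scaling. Of the pathway genes called lower in mastitis, 10 became 4 with the GAPDH covariate. Scaling to the hybridisation controls moved the median of all probe sets by 0.261 in mastitis against healthy and 0.164 in endometritis against healthy. The dim filter left out Bt.23126.2.S1_at and Bt.23126.2.A1_at, so it gives no value for them. Signal over background limits what these and Bt.23126.1.S1_at outside mastitis can show.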
